A study of Mus musculus with 9 samples.

Results

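The collagen genes, which encode the chains of the main structural proteins of connective tissue, were described in RNA from 9 oral tumors of mice. All genes with a collagen chain symbol in the array's gene table (Col, a type number, the letter a and a chain number) were taken. The table held 42 such genes among 18193 genes, through 82 of its 34945 probe sets with a single gene symbol. A probe set is a group of short probes for 1 transcript, and each gene was read from its probe set with the highest mean log2 signal. By structure the 42 genes comprised 11 fibrillar, 6 basement membrane and 9 FACIT collagens, and 16 others. FACIT stands for fibril-associated collagens with interrupted triple helices. Of the 42, 33 passed a filter on low signal and were tested.

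The tumors came from 3 genotypes with 3 tumors each. The first lacked p53 (p53-/-), the next carried the mutant allele p53R172H over a deleted allele (p53R172H/-), and the last carried it over a wild-type allele (p53R172H/+). The series title attributes all of the tumors to activated Ras together with the p53 lesion, and all mice were 1 year old. Not given in the sources used here were the Ras gene, what switched it on, and the meaning of the "K-" before each genotype in the labels. No untreated oral tissue and no Ras tumor with intact p53 entered these comparisons, so each difference is between tumor genotypes. It was not checked whether the wild-type allele was still present in p53R172H/+ tumors. The labels do not say that the 3 tumors of a genotype came from separate mice, so a p-value here reflects tumor-to-tumor spread, which may be partly technical.

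A collagen is a protein of alpha chains wound into a triple helix. Fibrillar collagens (types I, II, III, V, XI, XXIV and XXVII) form the rope-like fibrils of connective tissue, and in most tissues fibroblasts are their main source. Type IV collagens form the sheet under epithelia and around vessels, FACIT collagens sit on the fibril surface, and the others include beaded filaments, anchoring fibrils and transmembrane collagens. In oral epithelium and skin, keratinocytes make the anchoring fibril collagen type VII and the hemidesmosome collagen type XVII.

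The arrays were close in brightness, with median signals from 109 to 123, and none of the 9 duplicated another. The keratinocyte marker Krt14 read from 19908 to 22692 over the tumors. Other keratinocyte markers varied more, with Krt15 from 1083 to 3206 and Krt4 from 472 to 13502. In limma, 0 of the 12167 genes tested, and thus 0 collagens, had an adjusted p under 0.05 in each of the 3 comparisons. At an unadjusted limma p under 0.05, 1897, 1259 and 603 genes were counted for p53R172H/- against p53-/-, p53R172H/+ against p53-/- and p53R172H/- against p53R172H/+. All statements below that a level was lower or higher therefore describe averages and tumors, not calls.

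Most collagens read lower in the p53R172H/- tumors than in either other genotype. Against p53-/-, 31 of the 33 tested collagens had a lower mean log2 signal and 2 a higher one, beside 56.2% and 43.8% of all genes. Their median log2 difference was -0.39, beside -0.033 over all genes tested. At an unadjusted limma p under 0.05, 16 were lower and 0 higher, beside 9.16% of all genes lower and 6.44% higher (15.6% in all). For 14 collagens every p53R172H/- tumor lay below every p53-/- tumor, which held for 13.8% of all genes, and 0 lay above, beside 9.11%. The lowest limma adjusted p among them was 0.202. The dim members counted included Col2a1, Col9a1, Col9a3, Col11a1, Col11a2 and Col26a1. Their p53R172H/- means were 101, 112.97, 112.07, 75.7, 102 and 107, under the filter of 113.08. These genes passed it through higher levels in other tumors, so their lower sign was partly set by the selection. With the filter at the 75th percentile, which removes dim genes, 16 of 17 collagens were lower, beside 51.6% of all genes.

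Against p53R172H/+, 30 of the 33 were lower in p53R172H/- tumors and 3 higher, beside 52% and 48% of all genes. The median log2 difference was -0.43 beside -0.0073 over all genes. At an unadjusted limma p under 0.05, 15 were lower and 0 higher, beside 2.96% of all genes lower and 2% higher (4.96% in all). For 17 collagens the groups did not overlap and p53R172H/- was the lower one, beside 6.62% of all genes, and for 0 it was the higher one, beside 5.27%. The lowest adjusted p was 0.452. Col11a1, counted here, had a p53R172H/- mean under the filter and passed it through higher levels in other tumors. With the filter at the 75th percentile, 17 of 17 collagens were lower, beside 51.1% of all genes. Each genotype enters 2 of the 3 comparisons, so their counts are not independent.

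Between p53R172H/+ and p53-/- tumors the family was split in direction. Of the 33 collagens, 15 were higher and 18 lower in p53R172H/+ tumors, beside 43.9% and 56.1% of all genes. The median log2 difference was -0.037 beside -0.028 over all genes. With every array scaled to a common median, 19 were higher and 14 lower, beside 41.8% of all genes lower under that scaling. At an unadjusted limma p under 0.05 there were 5 (3 higher and 2 lower), beside 4.75% of all genes higher and 5.6% lower (10.3% in all). That count was 3 without p53R172H/+ tumor 1 or without tumor 2, and 8 without tumor 3. The groups did not overlap for 2 collagens, Col11a1 and Col12a1, both higher in p53R172H/+, beside 7.08% of all genes higher and 8.86% lower. Col2a1, Col8a2, Col9a3, Col11a2 and Col26a1, all lower, had p53R172H/+ means of 110.96, 113.01, 112.45, 112.98 and 111.20, under the filter of 113.08. They passed it through higher levels in other tumors, so their lower sign was partly set by the selection. Col9a3 was among the 2 lower at an unadjusted limma p under 0.05.

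**Figure D1:**
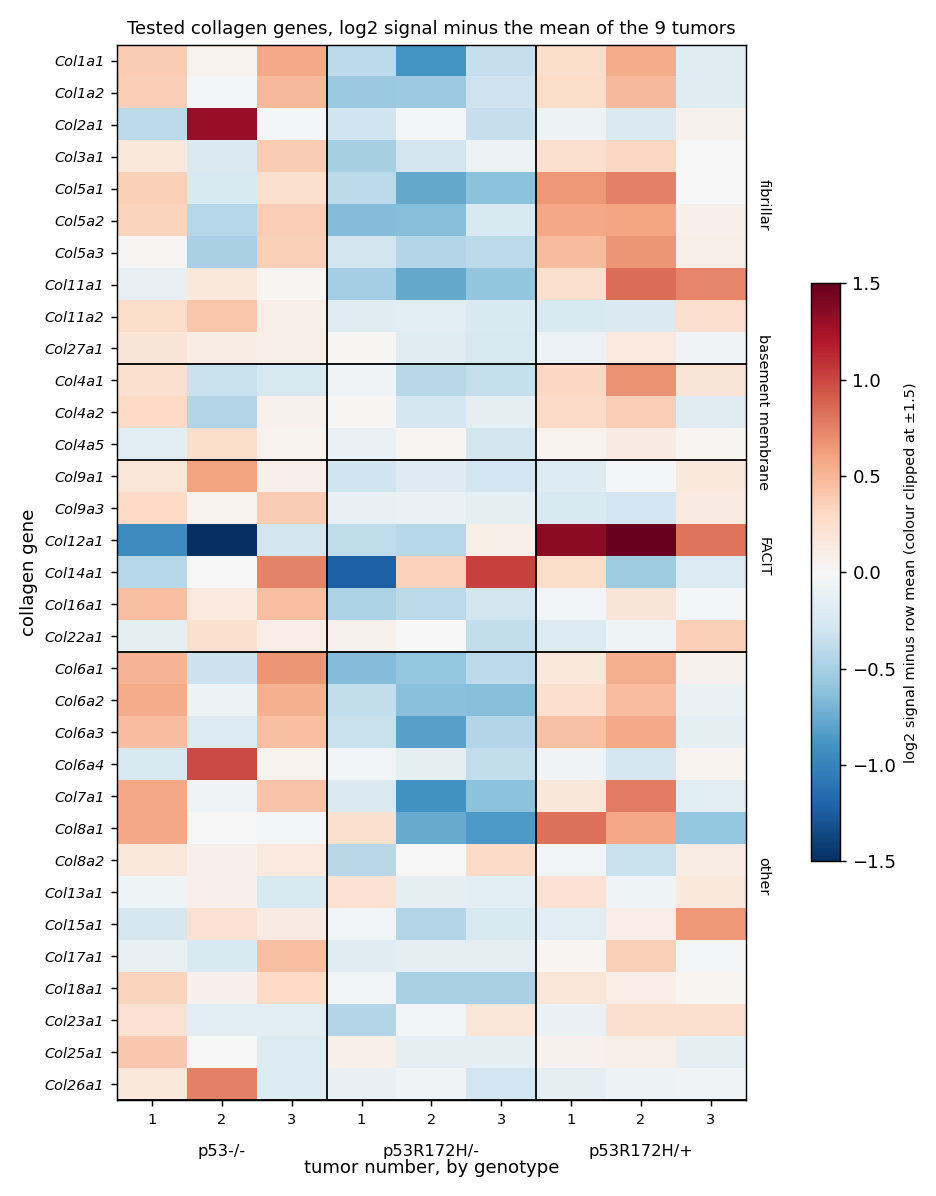
Log2 signal of each tested collagen in each of the 9 tumors, shown as the difference from that gene's mean over the tumors, with genes grouped by class and tumors by genotype. The p53R172H/- columns are mostly below the mean for the fibrillar genes and for Col6a1, Col6a2, Col6a3, Col7a1 and Col18a1.

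**Figure D2:**
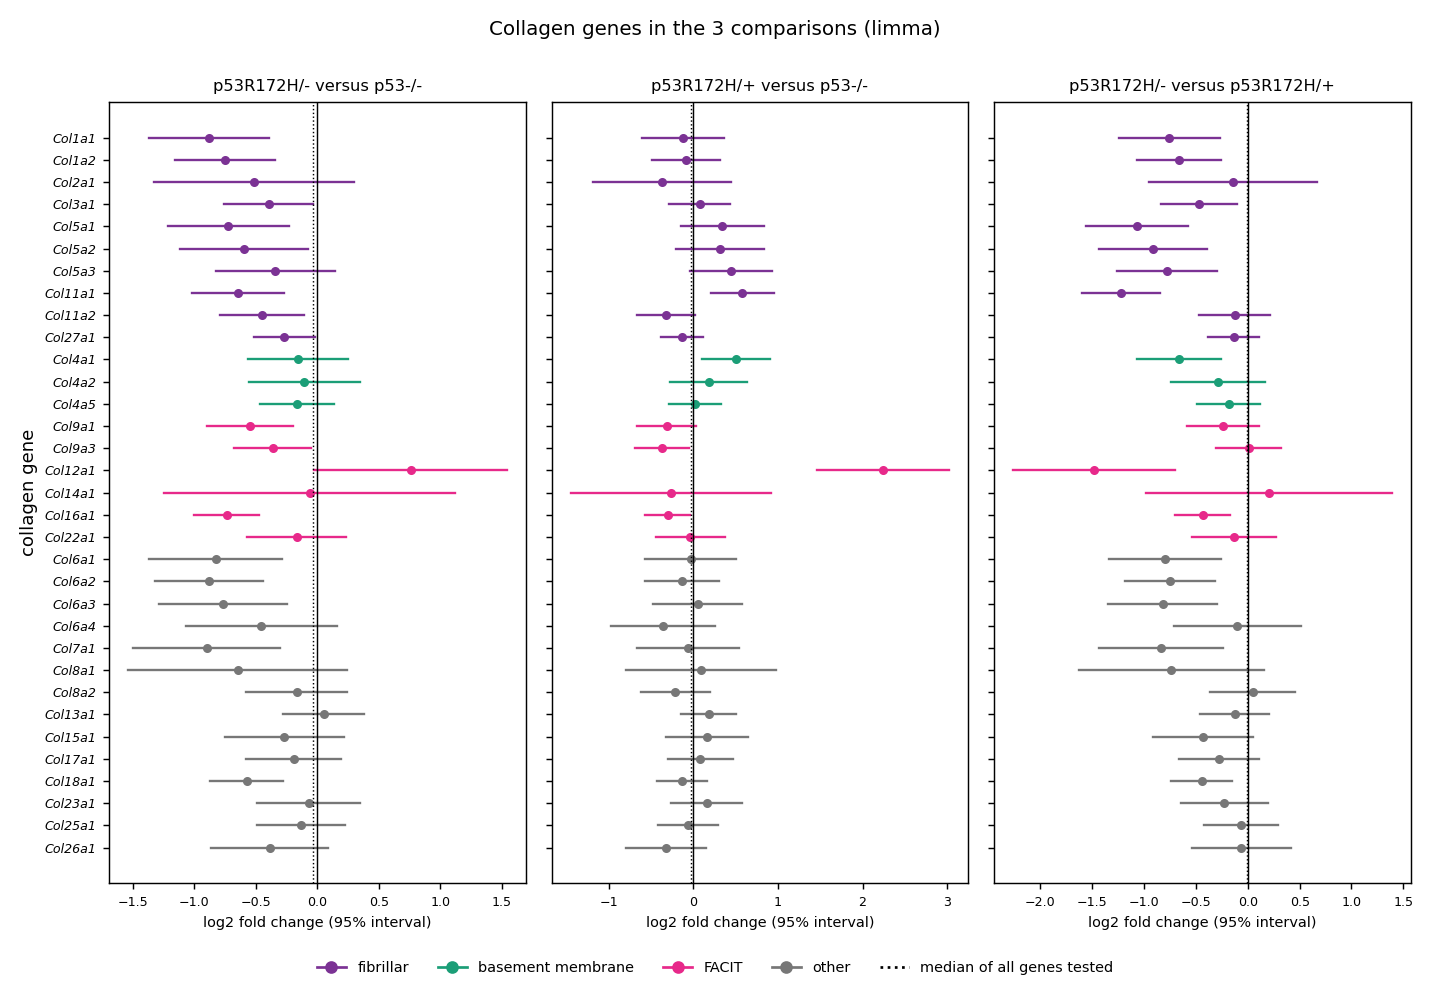
Log2 fold change of each tested collagen in the 3 genotype comparisons, with bars for the 95% confidence interval from limma. In p53R172H/- tumors 31 of 33 were lower than in p53-/- tumors and 30 of 33 lower than in p53R172H/+ tumors, and no gene passed an adjusted p of 0.05.

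The fibrillar chains were lower in p53R172H/- tumors than in both other genotypes without exception in sign. All 10 tested members had lower means against each, with median log2 differences of -0.56 against p53-/- and -0.71 against p53R172H/+. At an unadjusted limma p under 0.05 there were 8 and 7 of the 10, beside 9.16% and 2.96% of all genes lower. Comparing p53R172H/+ with p53-/- tumors, 5 were lower and 5 higher, beside 56.1% and 43.9% of all genes, with a median of -0.0048. The value of -0.71 ran from -0.90 to -0.55 when 1 tumor at a time was left out. Col2a1, Col11a1 and Col11a2 had p53R172H/- means of 101, 75.7 and 102, under the filter of 113. They passed it through higher levels in other tumors, so their lower sign in these counts was partly set by the selection. With the filter at the 75th percentile, 5 fibrillar genes remained, with a median of -0.72 against p53-/-.

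Col1a1 encodes the major chain of type I collagen, the bulk of fibrils in skin, oral mucosa and bone. Its signals were 3854, 3064 and 4380.1 in p53-/- tumors 1 to 3, 2247, 1587 and 2330.3 in p53R172H/- tumors 1 to 3, and 3549, 4358 and 2601 in p53R172H/+ tumors 1 to 3. All 3 p53R172H/- tumors lay below the other 6, whereas the other groups overlapped. The log2 difference of p53R172H/- was -0.88 ± 0.22 (SE, as for all values after ± here) from p53-/- (limma adjusted p = 0.214) and -0.76 ± 0.22 from p53R172H/+ (adjusted p = 0.916), which are 1.84-fold and 1.69-fold lower.

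Its partner chain Col1a2 had the same order of groups. The signals, again for tumors 1 to 3 of each genotype, were 6289, 4815 and 6829.5 in p53-/-, 3302, 3347 and 3916 in p53R172H/- and 5912, 6802 and 4296 in p53R172H/+. The p53R172H/- tumors were again the lowest 3, at -0.75 ± 0.18 against p53-/- (adjusted p = 0.214) and -0.67 ± 0.18 against p53R172H/+ (adjusted p = 0.916). For p53R172H/+ against p53-/- the log2 difference was -0.086 ± 0.18 (adjusted p = 0.874), within the spread between tumors.

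Col3a1, the chain of the thin type III fibrils that accompany type I, read 9202, 7079 and 10724 in p53-/-, 5820.1, 6787 and 7795 in p53R172H/- and 9756, 10220.1 and 8219 in p53R172H/+ tumors. The p53R172H/- group lay below all p53R172H/+ tumors but overlapped p53-/- tumor 2. The log2 differences were smaller than for type I on this probe set, at -0.39 ± 0.16 against p53-/- (adjusted p = 0.300) and -0.47 ± 0.16 against p53R172H/+ (adjusted p = 0.949). The first was -0.26 without p53-/- tumor 3.

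Type V and XI chains are minor fibrillar chains that start fibrils and set their width. Col5a1 read 1205, 800.1 and 1111 in p53-/-, 708, 552 and 610.4 in p53R172H/- and 1469, 1582 and 943 in p53R172H/+ tumors, so that p53R172H/- was the lowest group without overlap. It was lower by 1.65-fold against p53-/- (log2 -0.72 ± 0.22, adjusted p = 0.243) and by 2.09-fold against p53R172H/+ (log2 -1.07 ± 0.22, adjusted p = 0.916).

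Col5a2 read 2354, 1397 and 2426 in p53-/-, 1198, 1199 and 1602 in p53R172H/- and 2789.7, 2813 and 1969 in p53R172H/+ tumors. Its p53R172H/- tumors lay below all p53R172H/+ tumors and overlapped p53-/- tumor 2. The log2 differences were -0.60 ± 0.23 (adjusted p = 0.285) and -0.92 ± 0.23 (adjusted p = 0.916). The dimmer Col5a3 had 190.4, 134 and 240.3 in p53-/-, 155, 138 and 142 in p53R172H/- and 261, 296 and 199.8 in p53R172H/+ tumors, and it too was below all p53R172H/+ tumors only (log2 -0.78 ± 0.21, adjusted p = 0.916).

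Col11a1, the fibrillar chain best known from cartilage and from activated stroma, was the collagen for which all 3 genotypes stood apart. It read 107, 129 and 119 in p53-/-, 81.8, 68.4 and 77.0 in p53R172H/- and 138, 207 and 193 in p53R172H/+ tumors. No group overlapped another, with p53R172H/- lowest and p53R172H/+ highest. These signals are close to the filter of 113, so the folds rest on a dim probe set. The gene's other probe set was under the filter, at a mean signal of 100. It gave log2 differences of -0.084 for p53R172H/- against p53-/- and 0.82 for p53R172H/+ against p53-/-. For p53R172H/- against p53R172H/+ it gave -0.90. The gap between p53R172H/- and p53-/- was thus nearly absent there.

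Between p53R172H/- and p53R172H/+ tumors the Col11a1 difference was -1.23 ± 0.17, or 2.34-fold, with an adjusted p of 0.452. Its unadjusted p ranked 1 among the 12167 genes of that comparison. The gene's p53R172H/- mean of 75.7 was under the filter on low signal. Col11a1 passed it through higher levels in other tumors, chiefly p53R172H/+ (mean 179). This difference and its rank were therefore partly set by the selection. Against p53-/- the p53R172H/- tumors differed by -0.65 ± 0.17 (adjusted p = 0.214) and the p53R172H/+ tumors by 0.58 ± 0.17 (adjusted p = 0.359).

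**Figure D3:**
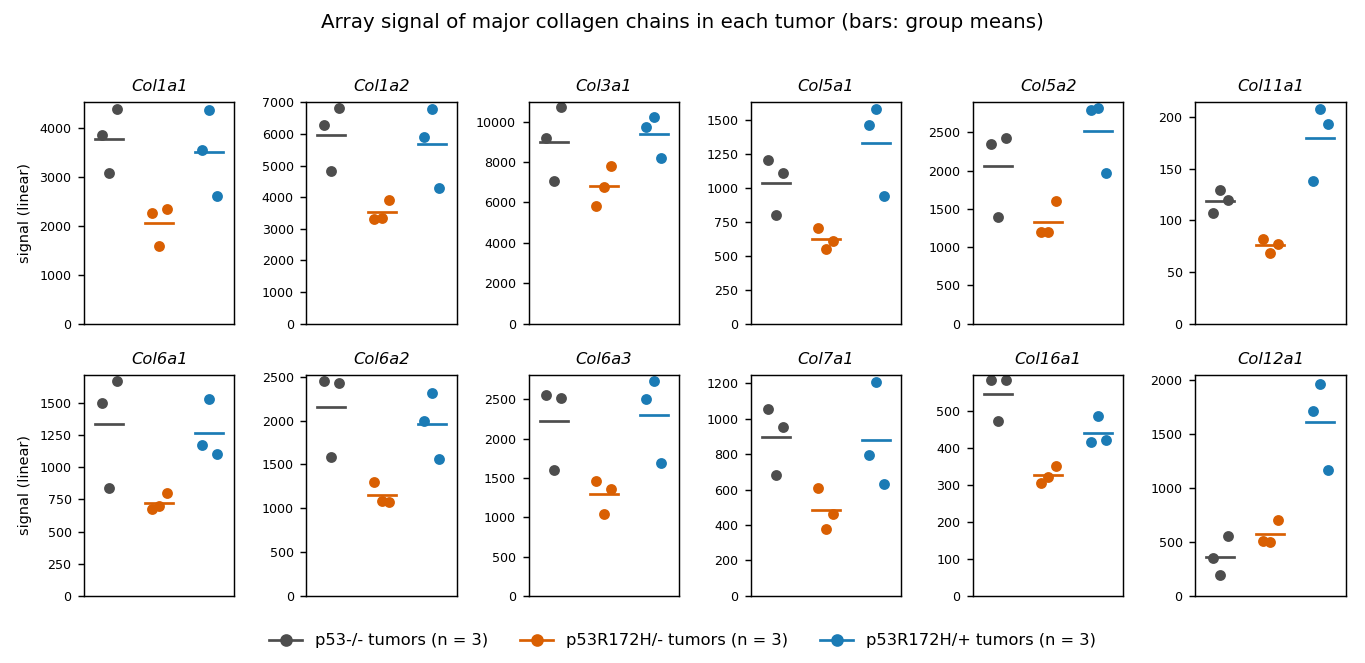
Signal of major collagen chains in each tumor on a linear axis, with 1 point per tumor and a line at the group mean. For Col1a1, Col1a2, Col5a1 and Col11a1 the p53R172H/- points lie below all others, and for Col12a1 the p53R172H/+ points lie above all others.

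The remaining fibrillar members were dim. Col11a2 read 142, 155 and 124 in p53-/-, 103, 104 and 99.7 in p53R172H/- and 99.7, 100.3 and 139 in p53R172H/+ tumors. All p53-/- tumors lay above the p53R172H/- ones (log2 -0.45 ± 0.15, adjusted p = 0.258), while p53R172H/+ overlapped both other groups. Col27a1 spanned only 204 to 275 over the 9 tumors. Its p53R172H/- tumors (244, 212 and 204) lay below the p53-/- tumors (275, 261 and 256) and overlapped the p53R172H/+ tumors (226, 266 and 232), at -0.27 ± 0.11 against p53-/- (adjusted p = 0.299). Col2a1, the cartilage fibril chain, read 88.6, 288 and 115 in p53-/- and between 92.0 and 122 in the other 6, so its group mean rests on p53-/- tumor 2.

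Every p53R172H/- tumor lay below all 6 others for 10 of the 33 tested collagens, beside 2.53% of all genes tested. For Col11a1 among them this was partly set by the selection described above. Promoter sequence was looked at for these 10: Col1a1, Col1a2, Col5a1, Col6a1, Col6a2, Col6a3, Col7a1, Col11a1, Col16a1 and Col18a1. RefSeq's GRCm38.p6 promoter table had an entry for 9 of them, all but Col1a1, and for 33 of the 42 collagens. The 250 bases before the annotated start are printed for 3 members that come from different chromosomes and hold the CCAAT box, a common promoter element that the factor NF-Y binds. Capitals mark CCAAT, or ATTGG where it lies on the opposite strand. Col1a2 is at chr6:4505368-4505617, Col11a1 at chr3:114030290-114030539 and Col16a1, a FACIT gene described further on, at chr4:130047590-130047839, all on the plus strand.
Col1a2: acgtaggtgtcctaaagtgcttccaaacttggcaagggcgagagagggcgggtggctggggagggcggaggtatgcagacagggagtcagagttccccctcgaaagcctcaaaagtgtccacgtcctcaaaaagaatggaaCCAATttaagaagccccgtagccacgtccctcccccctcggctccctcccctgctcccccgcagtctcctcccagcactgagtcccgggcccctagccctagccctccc
Col11a1: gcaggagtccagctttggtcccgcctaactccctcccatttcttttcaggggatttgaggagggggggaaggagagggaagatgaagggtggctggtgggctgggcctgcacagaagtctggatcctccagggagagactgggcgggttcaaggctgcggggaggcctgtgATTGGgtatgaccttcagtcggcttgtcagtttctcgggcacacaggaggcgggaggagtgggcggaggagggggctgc
Col16a1: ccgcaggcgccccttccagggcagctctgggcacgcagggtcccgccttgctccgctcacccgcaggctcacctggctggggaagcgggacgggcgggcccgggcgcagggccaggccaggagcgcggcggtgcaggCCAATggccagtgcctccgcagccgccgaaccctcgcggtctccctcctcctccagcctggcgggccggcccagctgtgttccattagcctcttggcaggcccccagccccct
The box lies 109 bases before the start in Col1a2, 79 in Col11a1 and 113 in Col16a1.

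Counted on both strands, CCAAT was present in 5 of the 9 and in 13 of all 33 collagen genes with an entry, beside 37.5% of 27025 mouse genes. The GC box GGGCGG, an element bound by Sp1, was present in 7 of the 9 and 20 of the 33, beside 35.4% of genes. TATAAA was present in 0 of the 9 and 5 of the 33, beside 14.3% of genes. No match of 1 motif can be a match of another, and a match is a description of these 250 bases only.

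Among basement membrane collagens, 3 of 6 passed the filter, and their medians were -0.16 for p53R172H/- against p53-/-, 0.18 for p53R172H/+ against p53-/- and -0.29 for p53R172H/- against p53R172H/+. With p53-/- tumor 1 left out the first of these was 0.015. Col4a1 and Col4a2 encode the chains of the common type IV network. Their annotated starts lie 21 bases apart on chromosome 8 (11312826 and 11312805, GRCm38.p6), with Col4a1 on the minus and Col4a2 on the plus strand.

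Col4a1 read 1649, 1107 and 1185 in p53-/-, 1351, 1052 and 1091 in p53R172H/- and 1739.6, 2232 and 1595 in p53R172H/+ tumors. Here p53R172H/- and p53-/- overlapped, and p53R172H/+ was above all p53R172H/- tumors and above 2 of the 3 p53-/- tumors. The log2 differences were -0.16 ± 0.18 for p53R172H/- against p53-/- (adjusted p = 0.669), 0.51 ± 0.18 for p53R172H/+ against p53-/- (adjusted p = 0.420) and -0.67 ± 0.18 for p53R172H/- against p53R172H/+ (adjusted p = 0.916).

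Col4a2 read 1529, 915 and 1296 in p53-/-, 1258, 1033 and 1122 in p53R172H/- and 1509.6, 1598 and 1098 in p53R172H/+ tumors, and its 3 groups overlapped. The 95% confidence interval of each of its log2 differences included 0, at -0.10 ± 0.20 for p53R172H/- against p53-/-, 0.18 ± 0.20 for p53R172H/+ against p53-/- and -0.29 ± 0.20 for p53R172H/- against p53R172H/+. Leaving out 1 tumor turned the sign of the first (0.058 without p53-/- tumor 1) and of the second (-0.025 without p53-/- tumor 2), and the third was -0.45 without p53R172H/+ tumor 3. Col4a5, the chain that is joined with Col4a6 in skin basement membrane, lay between 113 and 165 in all tumors. Col4a3, Col4a4 and Col4a6 were under the filter.

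Of the 9 FACIT members 6 were tested, with medians of -0.27 for p53R172H/- against p53-/-, -0.29 for p53R172H/+ against p53-/- and -0.18 for p53R172H/- against p53R172H/+. The first was -0.45 without p53R172H/- tumor 3, the second -0.14 without p53-/- tumor 3 and the third -0.056 without p53R172H/+ tumor 3. This class held both the widest range over tumors and the lowest p of the family against p53-/-.

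Col12a1 encodes a large FACIT chain of type I fibrils that is abundant in tissue under tension. Its signals were 347, 194 and 551 in p53-/-, 513, 496 and 707 in p53R172H/- and 1711, 1961 and 1169 in p53R172H/+ tumors, a 10.1-fold range. All p53R172H/+ tumors lay above all others, and p53R172H/- overlapped p53-/-. The p53R172H/+ tumors were 4.73-fold higher than p53-/- (log2 2.24 ± 0.35, adjusted p = 0.355), which ranked 3 by unadjusted p among all genes.

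Col12a1 was 2.79-fold lower in p53R172H/- than in p53R172H/+ tumors (log2 -1.48 ± 0.35, adjusted p = 0.916). It was 1 of the 2 collagens with a higher mean in p53R172H/- than in p53-/- tumors (log2 0.76 ± 0.35, adjusted p = 0.333), and this value was 0.37 without p53-/- tumor 2 and 1.12 without p53-/- tumor 3. Its probe sets disagreed, however. The other 2 above the filter gave -0.26 and -0.30 for p53R172H/- against p53-/-, and 0.82 and -0.25 for p53R172H/+ against p53-/-. They gave -1.08 and -0.051 for p53R172H/- against p53R172H/+, the same sign as the brightest.

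Col16a1, a FACIT chain found near epithelial basement membranes and in fibroblast matrix, had the lowest p of the collagens for p53R172H/- against p53-/-, ranking 4 among all genes. It read 584, 472 and 585 in p53-/-, 307, 322 and 352 in p53R172H/- and 416, 488 and 422 in p53R172H/+ tumors. The p53R172H/- tumors were the lowest 3 and close to one another, and the p53R172H/+ tumors overlapped p53-/- only through p53-/- tumor 2. The log2 differences were -0.74 ± 0.12 against p53-/- (adjusted p = 0.202) and -0.43 ± 0.12 against p53R172H/+ (adjusted p = 0.916). For p53R172H/+ against p53-/- it was -0.30 ± 0.12 (adjusted p = 0.444).

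Col14a1, a FACIT chain of dense connective tissue, varied more within genotypes than between them. It read 124, 167 and 278 in p53-/-, 70.7, 210.2 and 338 in p53R172H/- and 201, 114 and 144 in p53R172H/+ tumors. The lowest and the highest tumor were both p53R172H/-. Its log2 differences were -0.063 ± 0.52, -0.27 ± 0.52 and 0.20 ± 0.52. Without p53R172H/- tumor 1 the first of these was 0.58, and without p53R172H/- tumor 3 it was -0.55. With arrays scaled to a common median it was 0.0057. Its other probe sets above the filter gave the opposite sign for the second difference (0.12 and 0.011) and the third (-0.18 and -0.26).

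Of the type IX chains, which decorate cartilage fibrils, Col9a1 read 153, 206 and 143 in p53-/-, 110.0, 118 and 111 in p53R172H/- and 118, 133 and 151 in p53R172H/+ tumors. Its p53R172H/- and p53-/- tumors did not overlap (log2 -0.55 ± 0.15, adjusted p = 0.227). Col9a3 read 150.1, 126 and 159 in p53-/-, 112, 113 and 111 in p53R172H/- and 104, 99.98 and 133 in p53R172H/+ tumors. Its p53R172H/- tumors were below all p53-/- tumors (log2 -0.36 ± 0.14, adjusted p = 0.283), and p53R172H/+ tumors differed from p53-/- by -0.37 ± 0.14 (adjusted p = 0.437) with overlap. Col9a1 and Col9a3 both had p53R172H/- means under the filter, so their lower signs there were partly set by the selection. For Col9a3 the same holds for p53R172H/+. Col22a1 lay between 142 and 235 and its groups overlapped, with -0.17 ± 0.18 for p53R172H/- against p53-/-.

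The other collagens were led by the type VI chains, which form beaded microfilaments between cells and fibrils. Of the 14 tested in this class, 13 were lower in p53R172H/- than in p53-/- tumors and 13 lower than in p53R172H/+ tumors. The shares of all genes were 56.2% and 52%. The first count includes the dim Col26a1, whose lower sign was partly set by the selection. The medians of the class were -0.42 and -0.35. The first was -0.26 without p53-/- tumor 2. At an unadjusted limma p under 0.05 there were 5 in each, all lower, beside 9.16% and 2.96% of all genes lower. For p53R172H/+ against p53-/- 8 of 14 were lower, beside 56.1% of all genes. The median was -0.047, with -0.097 without p53R172H/+ tumor 2 and 0.044 without p53R172H/+ tumor 3.

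Col6a1 read 1501, 843 and 1670.4 in p53-/-, 672, 702 and 803 in p53R172H/- and 1177, 1532 and 1099.9 in p53R172H/+ tumors. The p53R172H/- tumors were the lowest 3, and p53-/- tumor 2 stood next to them. The log2 differences were -0.83 ± 0.24 (adjusted p = 0.235) against p53-/- and -0.80 ± 0.24 (adjusted p = 0.948) against p53R172H/+.

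Col6a2 read 2456, 1590.1 and 2426 in p53-/-, 1300.4, 1085 and 1073 in p53R172H/- and 1999, 2309.6 and 1567 in p53R172H/+ tumors. It was lower in p53R172H/- without overlap, by 1.84-fold against p53-/- (log2 -0.88 ± 0.19, adjusted p = 0.214) and by 1.68-fold against p53R172H/+ (log2 -0.75 ± 0.19, adjusted p = 0.916). Col6a3, the longest chain of the filament, read 2548, 1604 and 2518 in p53-/-, 1463, 1047 and 1363 in p53R172H/- and 2501, 2729 and 1684 in p53R172H/+ tumors. It too was lowest in the 3 p53R172H/- tumors, at -0.77 ± 0.23 (adjusted p = 0.243) and -0.82 ± 0.23 (adjusted p = 0.916).

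Col7a1, the anchoring fibril chain that ties the epithelial basement membrane to the stroma, read 1058, 685 and 955 in p53-/-, 611, 378 and 463 in p53R172H/- and 796, 1208 and 631 in p53R172H/+ tumors. All p53R172H/- tumors were below the other 6. It was 1.86-fold lower than in p53-/- (log2 -0.90 ± 0.27, adjusted p = 0.243) and 1.78-fold lower than in p53R172H/+ tumors (log2 -0.84 ± 0.27, adjusted p = 0.949).

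The hemidesmosome chain Col17a1, also an epithelial product, read 1761, 1625 and 2608 in p53-/-, 1684, 1723 and 1719 in p53R172H/- and 1941, 2430.5 and 1872 in p53R172H/+ tumors. The p53R172H/- tumors lay below all p53R172H/+ tumors but within the range of p53-/-, at -0.19 ± 0.17 against p53-/- (adjusted p = 0.579) and -0.27 ± 0.17 against p53R172H/+ (adjusted p = 0.949). Without p53-/- tumor 3 the first was 0.014.

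Col15a1 and Col18a1 are collagens of basement membrane zones, and the end of Col18a1 is the source of endostatin. Col18a1 read 1899.6, 1589 and 1864 in p53-/-, 1468, 1077 and 1079 in p53R172H/- and 1709.6, 1625 and 1548 in p53R172H/+ tumors. It was lowest in the 3 p53R172H/- tumors, by 1.49-fold against p53-/- (log2 -0.57 ± 0.13, adjusted p = 0.214) and 1.36-fold against p53R172H/+ (log2 -0.44 ± 0.13, adjusted p = 0.927). Col15a1 read 346, 486 and 452 in p53-/-, 403, 306 and 353 in p53R172H/- and 371, 444 and 649 in p53R172H/+ tumors, and its groups overlapped (log2 -0.27 ± 0.21 against p53-/- and -0.43 ± 0.21 against p53R172H/+). The first was -0.41 without p53-/- tumor 1 and -0.17 without p53R172H/- tumor 2, and the second was -0.21 without p53R172H/+ tumor 3.

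Col8a1, a short-chain network collagen of vessel walls, read 629, 425 and 413 in p53-/-, 498, 249.7 and 232 in p53R172H/- and 746, 632 and 283 in p53R172H/+ tumors. Tumors of each genotype were spread over a wide range and all groups overlapped, at -0.65 ± 0.40 and -0.74 ± 0.40 for p53R172H/- against p53-/- and p53R172H/+. Its partner Col8a2 read 132, 126 and 132 in p53-/-, 89.5, 119.8 and 145 in p53R172H/- and 116, 94.6 and 129 in p53R172H/+ tumors, at -0.17 ± 0.18 and 0.046 ± 0.18.

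The transmembrane collagens Col13a1, Col23a1 and Col25a1 were dim and overlapped between genotypes. Col13a1 read 133, 148 and 118 in p53-/-, 163, 127 and 125 in p53R172H/- and 162, 134 and 155 in p53R172H/+ tumors, and was the other collagen with a higher mean in p53R172H/- than in p53-/- (log2 0.053 ± 0.15). Col23a1 read 174, 133 and 133 in p53-/-, 109, 144 and 169 in p53R172H/- and 139, 176 and 175 in p53R172H/+ tumors, at -0.07 ± 0.19 and -0.23 ± 0.19. Col25a1 lay between 197 and 300.4 over the 9 tumors, at -0.13 ± 0.16 for p53R172H/- against p53-/-.

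Many dim members read highest in a single tumor, as did many dim genes of the array. Among the 25 collagens with a mean signal under 250, a level chosen after the values were seen, p53-/- tumor 2 had the highest signal for 12 (48%), beside 35.2% of all 10677 genes in that range. This array also had the highest median signal (123) and the lowest share of values under the floor (18.3%). Col6a4 read 149.5, 350.4 and 183 in p53-/- tumors and at most 182 elsewhere, and Col26a1 132, 199 and 103 and at most 114 elsewhere. Col19a1, under the filter, read 64.2, 221 and 78.0 in p53-/- tumors and at most 82.4 elsewhere.

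Among the 17 brighter collagens the lowest tumor was a p53R172H/- tumor for 14 and p53-/- tumor 2 for 3. For p53R172H/- tumors 1 to 3 the shares were 29.4%, 41.2% and 11.8%, beside 21.5%, 10.3% and 6.07% of all genes of that range. For p53-/- tumor 2 it was 17.6% beside 19.2%, close to the share of all genes. The highest tumor of these collagens was p53R172H/+ tumor 2 for 7 (41.2% beside 8.41%) and p53-/- tumor 3 for 6 (35.3% beside 8.5%). In p53-/- tumor 2 no brighter collagen was at its highest, beside 19.8% of the 7516 genes of that range.

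The 9 collagens under the filter were Col4a3, Col4a4, Col4a6, Col6a5, Col9a2, Col10a1, Col19a1, Col20a1 and Col24a1. Their geometric means, with low values raised to the floor of 52.6, ran from 52.6 for Col4a3 and Col9a2 to 93.9 for Col20a1. Just above the filter of 113 were Col11a1 at 116, Col2a1 at 117 and Col11a2 at 117. None of the 297 values of the tested collagens was at the floor.

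Levels of chains that are built into the same protein correlated over tumors for 5 of the 6 pairs compared, at an adjusted p under 0.05. Over the 9 tumors, Col1a1 and Col1a2 had a Pearson r of 0.962 (exact permutation p = 8.267e-06, adjusted over the 6 pairs 4.96e-05) and a Spearman rho of 0.983 (exact permutation p = 4.96e-05, adjusted 0.0002976). Without the 2 tumors farthest from the median of the first gene, r was 0.984, and over deviations from group means it was 0.872. The tests are two-sided.

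The type V pair Col5a1 and Col5a2 had r = 0.930 (exact permutation p = 0.0008185, adjusted 0.002023) and rho = 0.90 (exact permutation p = 0.002028, adjusted 0.004056). Its r was 0.886 without the 2 farthest tumors and 0.782 over deviations. For type VI, Col6a1 and Col6a2 had r = 0.933 (exact permutation p = 0.001011, adjusted 0.002023) and rho = 0.867 (exact permutation p = 0.004508, adjusted 0.006763), with r = 0.922 and 0.811 in those checks. Col6a1 and Col6a3 had r = 0.917 (exact permutation p = 0.001739, adjusted 0.002608) and rho = 0.90 (exact permutation p = 0.002028, adjusted 0.004056), with r = 0.913 and 0.774.

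The neighbours Col4a1 and Col4a2 had r = 0.798 (exact permutation p = 0.01264, adjusted 0.01517) and rho = 0.80 (exact permutation p = 0.01383, adjusted 0.01659), with r = 0.623 without the 2 farthest tumors and 0.829 over deviations. The dim pair Col11a1 and Col11a2 had r = 0.291 (exact permutation p = 0.4392, adjusted 0.4392) and rho = 0.033 (exact permutation p = 0.9484, adjusted 0.9484), with r = 0.534 and 0.323. The pair Col4a5 and Col4a6 was not run because Col4a6 was under the filter. Both genes of a pair were read from the same RNA and array, and the group differences enter the pooled values.

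Among the tested collagens, 15 had 18 further probe sets above the filter. Of these, 14, 12 and 16 gave the sign of the brightest probe set for p53R172H/- against p53-/-, p53R172H/+ against p53-/- and p53R172H/- against p53R172H/+. For the major fibrillar chains they repeated the direction of both p53R172H/- differences. The other probe set of Col1a1 gave -0.85 and -0.31, that of Col1a2 -1.05 and -0.94, and that of Col3a1 -0.91 and -0.91.

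Opposite signs beyond Col12a1 came with values up to 0.26 in size. For p53R172H/- against p53-/- they were 0.097 in Col23a1 and 0.062 in Col27a1. In p53R172H/+ against p53-/- they were 0.12 and 0.011 in Col14a1, 0.055 in Col18a1, 0.12 in Col27a1 and -0.14 in Col8a1. In p53R172H/- against p53R172H/+ they were -0.18 and -0.26 in Col14a1, beside 0.20 on its brightest probe set.

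Of 20 listed enzymes and chaperones that fold and modify collagen chains, 14 were tested and none was called. Lower means were read for 12 of the 14 in p53R172H/- against p53-/-, 9 in p53R172H/+ against p53-/- and 8 in p53R172H/- against p53R172H/+. The shares of all genes were 56.2%, 56.1% and 52%. The medians were -0.052, -0.067 and -0.027 in the 3 comparisons, beside -0.033, -0.028 and -0.0073 over all genes. For p53R172H/- against p53-/- the 3 smallest p belonged to Crtap, part of the prolyl 3-hydroxylation complex (log2 -0.28 ± 0.10, adjusted p = 0.258), and to the lysyl hydroxylases Plod2 (-0.49 ± 0.18) and Plod1 (-0.26 ± 0.12). Against p53R172H/+ they belonged to Plod1 (-0.39 ± 0.12, adjusted p = 0.948), Plod2 (-0.37 ± 0.18) and the collagen chaperone Serpinh1 (-0.47 ± 0.26). Between p53R172H/+ and p53-/- they were P4ha1 (0.33 ± 0.16), Mia3 (-0.19 ± 0.12) and P3h2 (-0.17 ± 0.11).

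Of 12 listed genes for procollagen processing and cross-linking, 6 were tested and none called, with medians of -0.13, 0.088 and -0.29. Pcolce2, which enhances removal of the procollagen C-propeptide, had higher means in p53R172H/- than in either other genotype. It read 204, 289 and 293 in p53-/-, 325, 438 and 519 in p53R172H/- and 241, 297 and 210.4 in p53R172H/+ tumors, so that all p53R172H/- tumors lay above the other 6. The log2 differences were 0.70 ± 0.21 (adjusted p = 0.243) and 0.76 ± 0.21 (adjusted p = 0.916). In the same list the next were Loxl3 (-0.42 ± 0.23) and Pcolce (-0.26 ± 0.26) for p53R172H/- against p53-/-, and Bmp1 (-0.26 ± 0.14) and Lox (-0.51 ± 0.38) against p53R172H/+. Between p53R172H/+ and p53-/- the first were Bmp1 (0.25 ± 0.14), Lox (0.60 ± 0.38) and Loxl3 (-0.29 ± 0.23).

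Of 10 collagen receptors and uptake genes, 6 were tested and none called, with medians of -0.24, -0.15 and -0.23. The endocytic collagen receptor Mrc2 was at -0.53 ± 0.20 for p53R172H/- against p53-/- (adjusted p = 0.276), the platelet receptor Gp6 at -0.39 ± 0.15 and the epithelial collagen receptor Ddr1 at -0.32 ± 0.13. Ddr1 was also first for p53R172H/+ against p53-/- (-0.38 ± 0.13, adjusted p = 0.407), followed by Itgb1 (0.63 ± 0.31) and Itga1 (0.26 ± 0.22). Against p53R172H/+ the p53R172H/- tumors were at -0.39 ± 0.20 for Mrc2, -0.23 ± 0.15 for Gp6 and -0.24 ± 0.22 for Itga1.

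Bulk tumor RNA cannot tell fewer collagen-making cells from less collagen RNA per cell, so marker lists are set beside the collagens. The mean log2 signal of the 10 fibrillar genes was 9.43 to 9.62 in p53-/-, 8.89 to 9.02 in p53R172H/- and 9.44 to 9.75 in p53R172H/+ tumors. For 14 tested fibroblast markers of 17 it was 9.14 to 10.19, 8.99 to 10.02 and 9.70 to 10.02. The fibrillar means of the p53R172H/- tumors lay below all others, whereas the fibroblast means overlapped and 2 of the 3 p53R172H/- tumors were at 9.91 and 10.02.

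Within the fibroblast list the members differed. Against p53-/-, 7 of the 14 were lower in p53R172H/- and 7 higher, beside 56.2% and 43.8% of all genes. At an unadjusted limma p under 0.05, 4 were lower and 0 higher, beside 9.16% and 6.44%. Against p53R172H/+, 10 of the 14 were lower in p53R172H/- and 4 higher, beside 52% and 48% of all genes. At the same limma threshold 5 of them were lower and 0 higher, beside 2.96% and 2%. Sparc read 5461, 4903 and 4752 in p53R172H/- tumors 1 to 3 and at least 5536 elsewhere. Lum read 808, 923 and 1223 in p53-/-, 422, 500 and 760 in p53R172H/- and 1821, 1345 and 745 in p53R172H/+ tumors. Its p53R172H/- tumors lay below all p53-/- tumors and overlapped p53R172H/+ tumor 3. Mfap5 read 125, 511 and 729 in p53R172H/- tumors 1 to 3, and Dpt 192, 918 and 955. Dcn, a small proteoglycan that binds type I fibrils, read 2951, 919 and 3934 in p53-/-, 1207, 6349 and 5253 in p53R172H/- and 3533, 1755 and 4622 in p53R172H/+ tumors, and was highest in p53R172H/- tumors 2 and 3. Postn, a matrix protein of activated fibroblasts, read 6455, 4189.8 and 6198 in p53-/-, 3697, 3348 and 3507 in p53R172H/- and 5748, 7010.3 and 4134 in p53R172H/+ tumors, and all p53R172H/- tumors lay below the other 6. Pdgfrb, a receptor of fibroblasts and pericytes, read 616, 509 and 794 in p53-/-, 304, 423 and 483 in p53R172H/- and 612, 591 and 695 in p53R172H/+ tumors, with the same lowest 3.

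Endothelial markers were at 7.80 to 8.07 in p53-/-, 7.81 to 8.01 in p53R172H/- and 7.88 to 8.05 in p53R172H/+ tumors, and pericyte and smooth muscle markers at 8.63 to 8.71, 8.40 to 8.63 and 8.62 to 8.69. Keratinocyte markers were at 12.61 to 12.98, 12.73 to 13.10 and 12.75 to 13.13. Skeletal muscle markers were at 7.63 to 8.31 in p53-/-, 6.55 to 10.93 in p53R172H/- and 6.35 to 8.43 in p53R172H/+ tumors. Hair keratins were at 8.28 to 9.49, 7.47 to 10.64 and 7.14 to 9.38, and macrophage markers at 8.22 to 8.78, 8.18 to 9.25 and 8.73 to 9.16.

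With the muscle list as a covariate the fibrillar median for p53R172H/- against p53R172H/+ was -0.59 in place of -0.71, and with the fibroblast list as a covariate it was -0.67. Of 8 cartilage markers 3 passed the filter, with means of 7.73 to 8.21, 7.72 to 7.91 and 7.63 to 7.81 in the 3 genotypes in the same order, and of 7 bone markers 1. Schwann cell markers were at 7.99 to 8.08, 7.73 to 8.32 and 7.73 to 8.36. Beyond these values, the part of other cell types in the collagen differences was not tested.

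**Figure D4:**
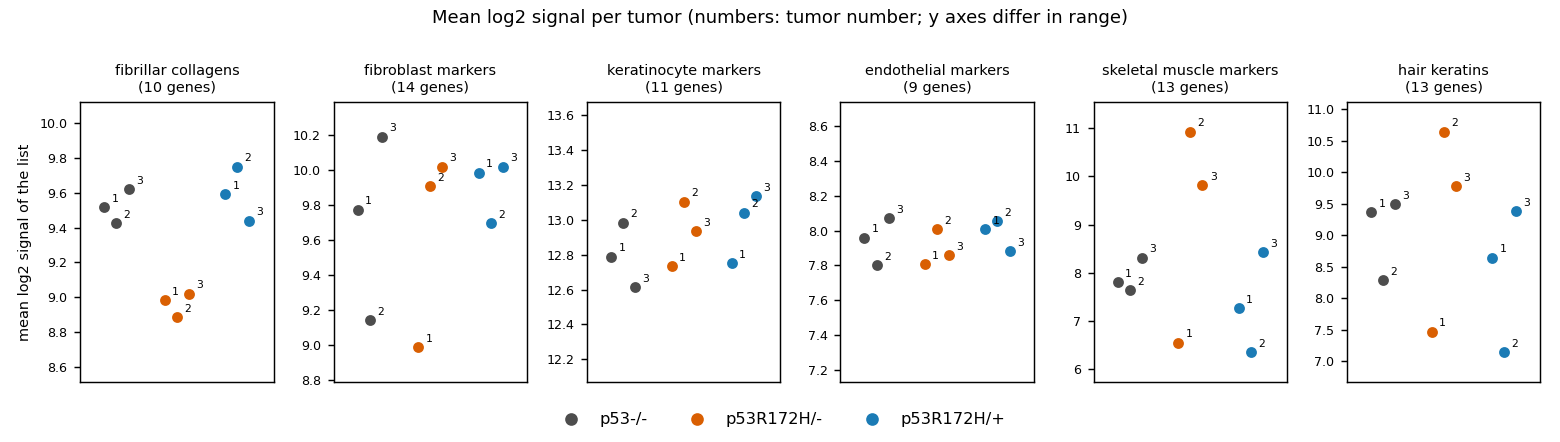
Mean log2 signal per tumor of the fibrillar collagens and of the marker lists, with 1 point per tumor, grouped by genotype. The fibrillar points of the 3 p53R172H/- tumors (8.89 to 9.02) lie below all others (9.43 to 9.75), while the fibroblast marker points overlap between genotypes.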

How the data were processed

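Total RNA of 9 oral tumors (3 per genotype) was made into biotin-labelled cRNA for arrays of Affymetrix design, per the labels' protocols. All deposited values are linear signal intensities, 1 per probe set and array, which the authors made with MAS5, per the submitters' processing notes. Not given in the sources used here are its version and scaling.

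Intensities under the 20th percentile of all values (52.6) were set to that floor before the log2 transform, and arrays were not normalized again. Of 45101 probe sets, 64 were controls, and 932 with several gene symbols and 9160 with none were left out. The probe set with the highest mean represented a gene, and genes under the median of non-control probe sets (113) were not tested. The filter uses the mean over all 9 tumors. All 42 collagen identifiers matched the RefSeq table and 0 symbols changed. The listed Col6a6 and Col28a1 were not among the array's named genes.

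The 3 genotype comparisons were fitted together with limma 3.58.1 under R 4.3.3, using lmFit, then eBayes with a variance trend, and adjusted by Benjamini-Hochberg over 12167 genes at 0.05. The script was tested on simulated data. Promoter sequences are RefSeq's. Values were given in every tumor for the major chains, for the 3 smallest p per comparison and direction, and for genes whose probe sets differ in sign, with a few dim members added after their values were seen. Of each pathway list the 3 smallest p per comparison were named. The members and lists were chosen with earlier results of these data known. Tumor numbers did not pair the tumors. The alternatives were array scaling (to 1 median or quantile), the variance trend, the filter, the probe set rule, the floor, marker covariates, a replicate block and each tumor left out. Array number limits the precision. The targeted gene is not reported here.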

Additional observations from a re-analysis of the deposited data

How the results depend on the processing

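No collagen passed an adjusted p of 0.05 in limma under any alternative tried, while for p53R172H/- against p53-/- 59 of all genes did with muscle markers as covariate and 1 with fibroblast markers, in place of 0. With arrays scaled to 1 median, Col14a1 was 0.0057 for p53R172H/- against p53-/-, and for p53R172H/+ against p53-/- Col6a1 was 0.036, Col7a1 0.0026 and the collagens at an unadjusted p under 0.05 numbered 3. Without the filter, which adds dim genes, the median of all collagens was -0.21 and of the other class -0.25 for p53R172H/- against p53R172H/+, and that of basement membrane collagens 0.0098 for p53R172H/+ against p53-/-. With the filter at the 75th percentile, which removes dim genes, medians for p53R172H/- against p53-/- were -0.65 (all), -0.72 (fibrillar), 0.011 (FACIT) and -0.71 (other), those for p53R172H/+ against p53-/- were 0.077 (all), 0.34 (basement membrane) and 0.97 (FACIT) with 3 collagens at an unadjusted p under 0.05, and those for p53R172H/- against p53R172H/+ were -0.74 (all), -0.48 (basement membrane), -0.96 (FACIT) and -0.74 (other).

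With the mean of all probe sets the FACIT median was -0.11 for p53R172H/+ against p53-/-, and for p53R172H/- against p53R172H/+ the fibrillar median was -0.54, the other -0.53 and Col14a1 -0.078. With muscle markers as covariate the FACIT median was -0.48 for p53R172H/- against p53-/- and Col6a3 was -0.014 for p53R172H/+ against p53-/-. For p53R172H/- against p53R172H/+ it gave -0.59 (fibrillar), -0.36 (FACIT), -0.50 (Col14a1), -0.19 (Col8a2) and -0.069 (Col9a3). With fibroblast markers Col14a1 was 0.024 for p53R172H/- against p53-/- and Col3a1 -0.0012 for p53R172H/+ against p53-/-. The cause was not tested for scaling, probe sets or covariates. A paired fit with a replicate block counted 15, 5 and 16 collagens at an unadjusted p under 0.05 in the 3 comparisons in turn, with 0 called, and tumor numbers did not pair the tumors.

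Leaving out 1 tumor at a time gave these ranges. For p53R172H/- against p53-/- medians ran from -0.27 to 0.015 (basement membrane), -0.45 to -0.22 (FACIT) and -0.55 to -0.26 (other), and genes that turned sign from -0.072 to 0.13 (Col13a1), -0.55 to 0.58 (Col14a1), -0.33 to 0.014 (Col17a1), -0.27 to 0.015 (Col4a1) and -0.31 to 0.058 (Col4a2). For p53R172H/+ against p53-/- the count was 3 to 8, medians ran from -0.084 to 0.065 (all), -0.096 to 0.14 (fibrillar), 0.078 to 0.35 (basement membrane), -0.30 to -0.14 (FACIT) and -0.097 to 0.044 (other), and genes from -0.53 to 0.050 (Col14a1), -0.063 to 0.34 (Col15a1), -0.052 to 0.29 (Col17a1), -0.29 to 0.078 (Col1a1), -0.23 to 0.10 (Col1a2), -0.086 to 0.21 (Col3a1), -0.025 to 0.35 (Col4a2), -0.33 to 0.16 (Col6a1), -0.34 to 0.022 (Col6a2), -0.17 to 0.26 (Col6a3) and -0.32 to 0.15 (Col7a1). For p53R172H/- against p53R172H/+ medians ran from -0.45 to -0.33 (all), -0.90 to -0.55 (fibrillar), -0.45 to -0.18 (basement membrane) and -0.29 to -0.056 (FACIT), and genes from -0.29 to 0.84 (Col14a1), -0.12 to 0.23 (Col8a2) and -0.072 to 0.14 (Col9a3).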
